A study of Rattus norvegicus with 48 samples.

Results

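The 6 genes described here, Abcb1a, Abcg2, Abcc4, Abcc5, Abcc1 and Abcc3, encode drug efflux pumps of the ATP-binding cassette (ABC) superfamily. The list is one of gene names with no threshold on a measured value, although it was drawn up with earlier results of these data known, and all 6 were among the 13050 genes of the 32624 listed for which no sample was without a read. Their RNA was measured by RNA-Seq in cerebral endothelial cells (CECs), the cells that line the vessels of the brain, freshly isolated from the cerebral cortex of male Wistar-Han rats. The rats were fed ad libitum (AL, 0 days of fasting) or were deprived of food for 1 day (F1), 2 days (F2) or 3 days (F3), with free access to water in all groups, and each group had 3 samples, lettered i, j and k. The rats were anesthetized with diazepam and ketamine and perfused with heparinized buffer before the cells were taken, and their age was not given in the sources used here. Cells of pooled cortices were depleted of CD11b+ microglia and then retained with magnetic beads on CD31, so a sample stands for several rats and for sorted cells, and its spread may hide differences between single animals. Fewer cells that express a gene and less RNA per cell cannot be told apart in such bulk samples.

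ABC pumps use the energy of ATP to move substrates across membranes against their gradient. At the blood-brain barrier (BBB), pumps on the blood-facing membrane of CECs return many drugs and toxins to the blood before they reach the brain tissue. P-glycoprotein (PGP, Abcb1a in rodents) and BCRP (Abcg2) handle broad sets of mostly hydrophobic compounds with overlapping substrates, whereas the multidrug resistance-associated proteins (MRPs, the Abcc genes here) carry many organic anions and conjugates, with MRP4 and MRP5 also known to carry cyclic nucleotides. The comparison asked in which order these pumps stood in CECs and how large a change with fasting the data would still allow.

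The samples held 20718644 to 25960874 assigned reads, with a median of 23809144. The endothelial label held in every sample, as Pecam1 (CD31) stood at 31655 to 38791 normalized counts, which are read counts scaled to a common effective library size. Gene symbols could be attached to 2043 of the genes tested, so that 3 of 7 endothelial, 3 of 7 mural, 6 of 8 microglial, 1 of 4 astrocyte, 1 of 4 oligodendrocyte and 0 of 4 neuronal markers could be read. The 3 endothelial markers summed to 399758 to 455474 normalized counts in AL and to 492545 to 545311 in the fasted samples, without overlap. Of the 3, Slc2a1 (the glucose transporter GLUT1) had LFCs (log2 fold changes) against AL of 0.43, 0.40 and 0.52 in F1, F2 and F3, Pecam1 of 0.16, -0.043 and 0.035, and Slco1c1 (an organic anion transporter) of -0.29, -0.058 and -0.31. Their part in the results of the pumps was not tested beyond the scaling to Pecam1 described below. The summed mural markers (Abcc9, Acta2 and Anpep, of pericytes and smooth muscle) ranged from 1908 to 4372 in AL, 2066 to 2365 in F1, 2451 to 4744 in F2 and 1689 to 4443 in F3 samples. The astrocyte marker Aldoc ranged from 1530 to 2277, the summed microglial markers from 56.7 to 134, Aspa of oligodendrocytes from 15.6 to 34.1 and Alas2 of red blood cells from 36.1 to 110, and none of the markers read was at 0. The F2 sample j stood apart from the rest: it was the lowest of the 12 samples for 20.9% of the genes and the highest for 20.1%, against 5.16% to 10.8% and 5.02% to 10.3% in the other 11 samples. Abcb1a, Abcc1 and Abcc4 all had their lowest value there, and results that rest on this sample are given below with and without it.

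The promoters of the 2 pumps with the most reads, 250 bases before to 50 after the gene's start, are shown because these genes carried most of the pump transcript reads. The letters were taken from RefSeq on the GRCr8 assembly, not on the Rnor_6.0 build that the counts were made with, and 4 of the 6 genes had an entry (all but Abcc3 and Abcc5). Capitals mark the GC box GGGCGG or its reverse complement, a binding motif of Sp1, and the xenobiotic response element core GCGTG or its reverse complement, a motif of the dioxin receptor AHR. The Abcb1a window lay at chr4:26397599-26397898 on the minus strand and that of Abcg2 at chr4:89075224-89075523 on the plus strand, both read 5′ to 3′ along the gene.
Abcb1a: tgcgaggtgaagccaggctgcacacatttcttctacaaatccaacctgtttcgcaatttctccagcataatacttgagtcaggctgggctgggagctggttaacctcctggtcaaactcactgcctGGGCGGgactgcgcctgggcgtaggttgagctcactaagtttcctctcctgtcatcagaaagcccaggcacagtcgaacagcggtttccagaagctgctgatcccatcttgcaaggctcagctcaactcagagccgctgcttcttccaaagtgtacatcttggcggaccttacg
Abcg2: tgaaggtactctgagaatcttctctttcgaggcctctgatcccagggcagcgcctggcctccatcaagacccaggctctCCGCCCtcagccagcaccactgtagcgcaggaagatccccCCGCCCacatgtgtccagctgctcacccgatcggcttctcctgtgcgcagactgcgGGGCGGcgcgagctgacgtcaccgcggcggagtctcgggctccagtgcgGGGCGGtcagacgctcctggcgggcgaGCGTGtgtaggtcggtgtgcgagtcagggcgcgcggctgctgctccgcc

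The window of Abcb1a held 1 GC box, on the strand of the gene, and no GCGTG on either strand, and that of Abcg2 held 2 GC boxes on each strand and 1 GCGTG. Abcc1 (chr10:1162318-1162617, minus strand) held 4 GC boxes on its own strand, 1 on the other and 1 GCGTG on the other strand. Abcc4 (chr15:102181315-102181614, minus strand) held 1 GC box on its own strand and 2 GCGTG on the other. The GC content was 53.7% for Abcb1a, 68.0% for Abcg2, 73.7% for Abcc1 and 75.3% for Abcc4, against a median of 51.7% over 33469 rat promoters. A GC box stood in 33.1% and a GCGTG in 29.7% of those promoters, searched on both strands. The letters CCAAT and the PPAR motif of 2 copies of AGGTCA spaced by 1 base, present in 37.5% and 0.0538% of all promoters, were not found in the 4 windows, which says nothing of binding elsewhere. No measurement of promoter activity or binding was part of these data.

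Abcb1a gave by far the most reads of the 6 pumps, and the order Abcb1a, Abcg2, Abcc4, Abcc5, Abcc1, Abcc3 was kept in 12 of 12 samples. The levels in this order are reads per gene and not reads per length, since no transcript lengths of the files' annotation were used here, so they rank the pumps by reads and not by molecules. Over the 12 samples, Abcb1a (PGP, ENSRNOG00000008012) had 75132 ± 4073 normalized counts and Abcg2 (BCRP, ENSRNOG00000007041) had 25191 ± 3536 (SD, n = 12). Abcc4 (MRP4, ENSRNOG00000010064) had 14457 ± 1740 and Abcc5 (MRP5, ENSRNOG00000029178) had 5212 ± 380 (SD, n = 12). Abcc1 (MRP1, ENSRNOG00000022305) had 1298 ± 176 and Abcc3 (MRP3, ENSRNOG00000002948) had 50.8 ± 14.6 (SD, n = 12). By reads, Abcb1a stood at rank 25 among the 13050 genes, Abcg2 at 107, Abcc4 at 226, Abcc5 at 820, Abcc1 at 3559 and Abcc3 at 10274.

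Of the reads of the 6 pumps, Abcb1a took 61.9% ± 1.50 and Abcg2 20.7% ± 2.39 (SD, n = 12). Abcc4 took 11.9% ± 1.36, Abcc5 4.30% ± 0.301 and Abcc1 1.07% ± 0.123 (SD, n = 12). Abcc3 took 0.0420% ± 0.0125 (SD, n = 12). Together they made up 0.509% ± 0.0255 of all assigned reads and 76.9% ± 0.917 of the reads of the 38 ABC genes tested (SD, n = 12). Among those 38 genes by reads, Abcb1a, Abcg2 and Abcc4 held ranks 1 to 3 and Abcc5 rank 5, behind Abcc6 (MRP6) with 5494 ± 364 normalized counts (SD, n = 12). Abcc1 held rank 15 and Abcc3 rank 30, so the least read pump of the 6 stood among the ABC genes with few reads.

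**Figure D1:**
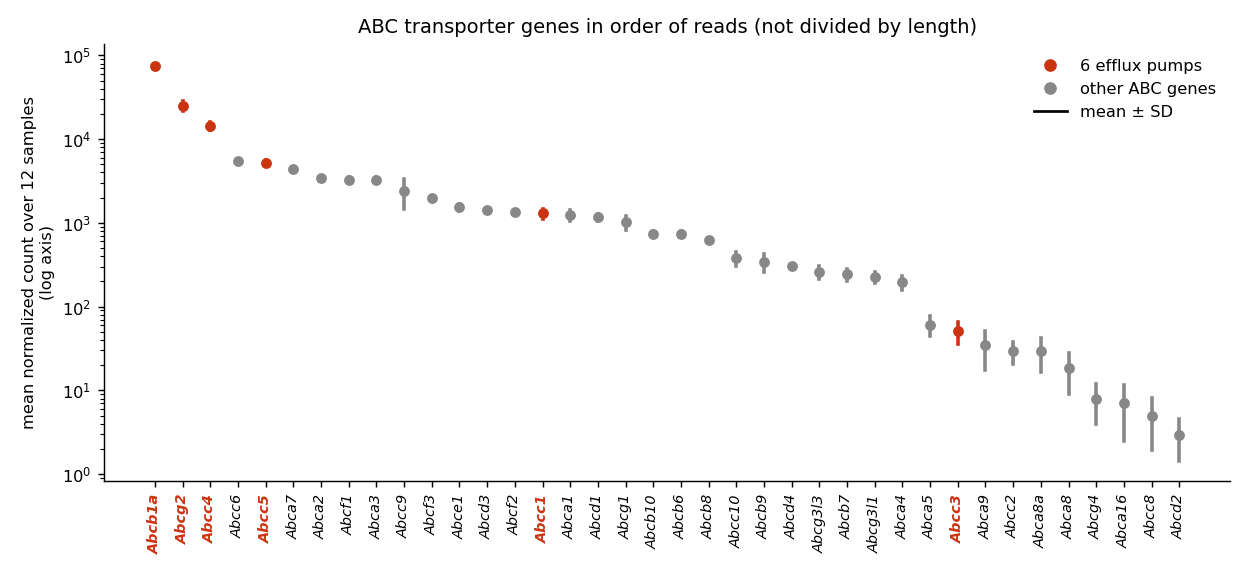
Mean normalized count of each of the 38 ABC transporter genes over the 12 samples, on a log axis, in order of reads and not divided by length, with bars of 1 SD. The 6 efflux pumps are in red, from Abcb1a at 75132 at the left to Abcc3 at 50.8, and the other ABC genes are in grey.

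The steps between neighbours in this order differed in size. Within samples, Abcb1a had 3.01 times the reads of Abcg2 (geometric mean, range 2.35 to 3.96), with the highest ratio in AL sample j and the lowest in F2 sample j. The step from Abcg2 to Abcc4 was the smallest at 1.74 (1.27 to 2.85), with the ends of its range in the same samples. Abcc4 had 2.76 times the reads of Abcc5 (1.86 to 3.20), Abcc5 had 4.05 times those of Abcc1 (3.16 to 6.25) and Abcc1 had 26.1 times those of Abcc3 (12.6 to 35.2). Each of the 5 neighbouring pairs kept its order in 12 of 12 samples, and since the pairs were set by that order, no p-value is given for them. By molecules, a pair would stand in the other order only if the counted exons of the first gene were longer than those of the second by more than that ratio.

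Counting error was small beside the coefficient of variation within groups, pooled over the groups, for all pumps but Abcc3. That coefficient ran from 4.50% for Abcc5 to 12.9% for Abcc1 among the other pumps. In single groups the spread could be no larger than counting gives. Abcc1 had 1442 ± 29.1 normalized counts in F3, and Abcc5, with a counting error of 1.29% to 1.53%, had 5340 ± 43.1 in F1 samples (SD, n = 3 each). The summed read counts of Abcb1a were 67792 to 82719 per sample, with a counting error of 0.348% to 0.384%, and those of Abcc1 were 872 to 1586, with an error of 2.51% to 3.39%. Abcc3 had only 33 to 95 reads per sample, so that counting alone gave an error of 10.3% to 17.4%, beside a coefficient of variation within groups of 31.5%. Between the 4 sequencing runs of each sample, chi-square divided by its 36 degrees of freedom was 0.419 to 0.954 for 4 of the 6 genes. It was 1.52 for Abcc3 (p = 0.0242) and 1.55 for Abcc5 (p = 0.0191). Both p-values are unadjusted for the 6 genes, so a difference between runs beyond counting is not established. These errors cover counting only. Reads that match more than once were removed by the authors, and Abcb1a has a close paralog (Abcb1b) while Abcc1 and Abcg2 have pseudogenes (Abcc1-ps1 and Abcg2-ps1), so the counts of these 3 genes are uncertain to the extent that reads are shared.

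No pump was called in any fasted group against AL. The edgeR quasi-likelihood test with Benjamini-Hochberg adjustment over all genes, at an adjusted p of at most 0.05, called 0 of the 6 on each day. Of all 13050 genes it called 6.56% at day 1, 0.858% at day 2 and, at day 3, 6.28% as higher and 5.77% as lower. At a background of 0.858% at day 2, a count of 0 among 6 genes carries little information, and the intervals of each gene say more than the absence of a call. At an unadjusted p under 0.05 the counts were 0, 2 and 0 of the 6, beside 20.6%, 12.8% and 26.0% of all genes. DESeq2 also called 0 of the 6 on each day, beside 9.51%, 2.75% and 14.4% of all genes. Its lowest adjusted p among the pumps was 0.0550, for Abcc5 at day 2 (unadjusted p = 0.00165). Abcg2 had an adjusted p of 0.104 there (unadjusted p = 0.00438). The median LFC of the 6 pumps was 0.10 after 1 day, 0.056 after 2 days and 0.021 after 3 days, beside medians over all genes of -0.0043, -0.0085 and -0.0053. The 3 comparisons share the AL samples.

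**Figure D2:**
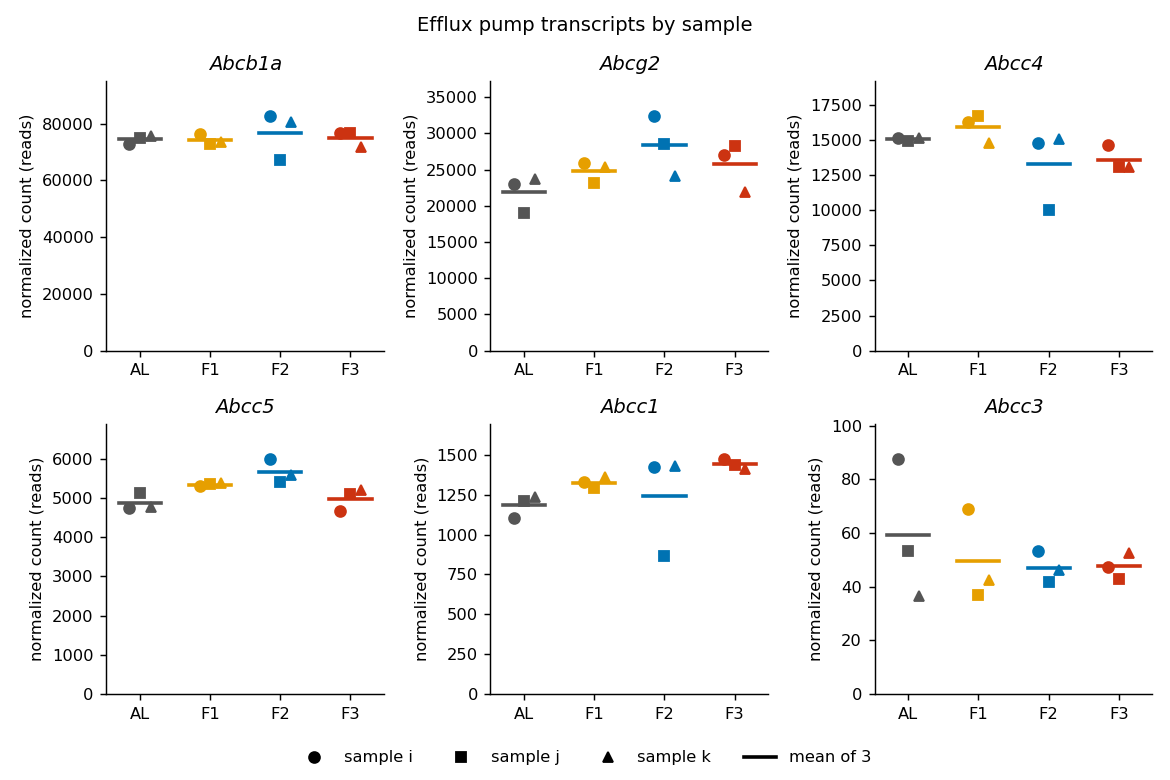
Normalized counts (linear axes from 0) of the 6 pumps in each of the 12 samples, by group, with circles for samples i, squares for samples j and triangles for samples k, and a line at the mean of 3. Every fasted group overlaps with AL for Abcb1a and Abcc3. Abcg2 (F2), Abcc4 (F3), Abcc5 (F1 and F2) and Abcc1 (F1 and F3) have fasted groups without overlap with AL. F2 sample j lies lowest for Abcb1a (67163), Abcc4 (10020) and Abcc1 (864).

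Abcb1a, the gene of PGP, differed little in its mean level between groups. It stood at 72799, 75047 and 75650.5 normalized counts in AL samples i, j and k, at 76467, 72826 and 73423 in F1, at 82601, 67163 and 80644 in F2 and at 76770, 76566 and 71625 in F3. The F2 samples held both the highest and the lowest of the 12 values, and every fasted group overlapped with AL. The LFC against AL stood at -0.0050 in F1, 0.044 in F2 and 0.0094 in F3, with a standard error of 0.087 each. The 95% interval of the change ran from -12.5% to 13.5% at day 1, from -9.49% to 17.4% at day 2 and from -11.6% to 14.6% at day 3. Without F2 sample j, the LFC at day 2 was 0.13 with an interval of -1.47% to 21.8%.

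Abcg2, the gene of BCRP, was higher in every F2 sample than in any AL sample, but the difference was not called. Its normalized counts were 23074, 18969 and 23659 in AL, 25856, 23113 and 25341 in F1, 32371, 28585 and 24113 in F2 and 27021, 28229 and 21964 in F3 samples. AL sample j was the lowest of the 12 and F2 sample i the highest, and F2 was the 1 fasted group that did not overlap with AL, while 6.89% of all genes were likewise higher in F2 without overlap. The LFC at day 2 was 0.37 (standard error 0.12, unadjusted p = 0.00997, adjusted p = 0.209), and its interval ran from 7.54% to 55.9% higher. At day 1 the LFC was 0.18 (interval -6.06% to 36.2%) and at day 3 it was 0.23 (-2.39% to 41.5%). An LFC of at least 0.57 would have been called at day 2 for a gene with this error, because few genes passed there, against 0.44 at day 1 and 0.40 at day 3. Leaving out single samples moved the LFC at day 2 between 0.27 (without F2 sample i) and 0.48.

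Among the marker lists, 1 of the 3 mural markers, Acta2 of smooth muscle, had an LFC of 0.83 at day 2 (standard error 0.31, unadjusted p = 0.0201, adjusted p = 0.278), and the part of mural cells in the value of Abcg2 was not tested beyond a covariate. With the summed mural markers as a covariate, the LFC of Abcg2 at day 2 was 0.39 (adjusted p = 0.241), and Abcg2 had a Pearson r of 0.0891 with the summed mural markers over the 12 samples, as a description. Most of that sum was Abcc9 (2419 normalized counts on average, against 220 for Acta2 and 376 for Anpep), so both values say little of Acta2. Acta2 alone had r = 0.832 with Abcg2, the highest among the 1259 genes searched below, and its part was not tested. Relative to Abcb1a, Abcg2 stood at 29.4% ± 3.59 of the reads of Abcb1a in AL, 33.4% ± 1.44 in F1, 37.2% ± 6.56 in F2 and 34.2% ± 3.21 in F3 samples (SD, n = 3 each). Its shares overlapped with those of AL in F2 and F3 samples. Abcc5 stood at 6.54% ± 0.264 of the reads of Abcb1a in AL, 7.20% ± 0.238 in F1, 7.40% ± 0.574 in F2 and 6.66% ± 0.599 in F3 samples, and its F1 and F2 shares lay above those of AL without overlap. Abcc1 stood at 1.59% ± 0.0614 in AL, 1.79% ± 0.0580 in F1, 1.60% ± 0.269 in F2 and 1.92% ± 0.0476 in F3 samples, with its F1 and F3 shares above those of AL without overlap (SD, n = 3 each). Abcc4 ranged from 19.9% to 20.8% of the reads of Abcb1a in AL and from 20.1% to 22.9% in F1 samples. It went the other way later, with 14.9% to 18.6% in F2 and 17.1% to 19.1% in F3 samples, both below AL without overlap. The shares of Abcc3 overlapped with those of AL in every fasted group. None of these shares was tested, and how many of all genes separate in this way relative to Abcb1a was not counted. The separations are thus not results about the pumps. By normalized counts, 3748, 2029 and 4650 of the 13050 genes did not overlap with AL in F1, F2 and F3, in either direction.

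Abcc4, the gene of MRP4, did not separate from AL at days 1 and 2 and lay below it at day 3 without a call. Its normalized counts were 15150, 14921 and 15151 in AL, 16243, 16670 and 14762 in F1, 14762, 10020 and 15026 in F2 and 14628, 13067 and 13082 in F3 samples. The AL samples lay within a narrow range, and each F3 sample was below all of them, as held for 18.0% of all genes. The LFC was 0.076 (interval -12.4% to 26.9%) at day 1, -0.18 (-26.9% to 5.98%) at day 2 and -0.15 (-25.1% to 8.56%, adjusted p = 0.504) at day 3. Without F2 sample j, the LFC at day 2 was -0.018. At day 3 it was then -0.15 with an interval of -18.4% to -0.405%, wholly below 0 (unadjusted p = 0.0425, adjusted p = 0.141), still not called.

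Abcc5, the gene of MRP5, had the smallest error of the 6 pumps and was higher in all F1 and F2 samples than in any AL sample. Its normalized counts were 4734, 5114 and 4759 in AL, 5293, 5348 and 5379 in F1, 5982, 5398 and 5583 in F2 and 4654, 5097 and 5200 in F3 samples. Of all genes, 14.6% were likewise higher without overlap in F1 and 6.89% in F2. The F3 samples overlapped with AL and held the lowest of the 12 values. The LFC was 0.13 at day 1 (interval -1.25% to 21.8%, adjusted p = 0.311), 0.22 at day 2 (4.57% to 29.0%, unadjusted p = 0.00855, adjusted p = 0.201) and 0.034 at day 3 (-7.84% to 13.7%). With a standard error of 0.070, near the 6.08 percentile of all genes, an LFC of 0.25 at day 1, 0.32 at day 2 or 0.23 at day 3 would have been called.

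Abcc1, the gene of MRP1, was higher in all F1 and F3 samples than in any AL sample, without a call in the fit of all 12 samples. Its normalized counts were 1105, 1208 and 1237 in AL, 1328, 1294 and 1359 in F1, 1423, 864 and 1432 in F2 and 1472, 1439 and 1414 in F3 samples. Every F1 and F3 sample lay above all AL samples, as 14.6% and 17.6% of all genes did, and F2 sample j was the lowest of the 12. The LFC was 0.17 at day 1 (interval -9.75% to 39.5%), 0.068 at day 2 (-15.7% to 30.3%) and 0.29 at day 3 (-1.90% to 51.4%, adjusted p = 0.241).

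The F2 sample j bore on the error of Abcc1 in all comparisons, since the 4 groups share 1 estimate of the spread. It lay 0.72 below the mean of the other 2 F2 samples on the log2 scale, at the 6.76 percentile of all genes. Without it the LFC at day 3 was again 0.29, the interval of the LFC was 0.16 to 0.41 and Abcc1 was called (adjusted p = 0.00339), as were 18.1% of all genes in that fit. A fit of only the 6 AL and F3 samples also called Abcc1 (LFC 0.29, adjusted p = 0.0113), and it called 15.6% of all genes. Of the 25 other settings tried, those were the 2 in which Abcc1 was called at day 3, and the adjusted p ranged from 0.00339 to 0.462 with an LFC between 0.24 and 0.32. At days 1 and 2, leaving out F2 sample j gave LFCs of 0.17 and 0.27 with adjusted p of 0.0775 and 0.0571.

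**Figure D3:**
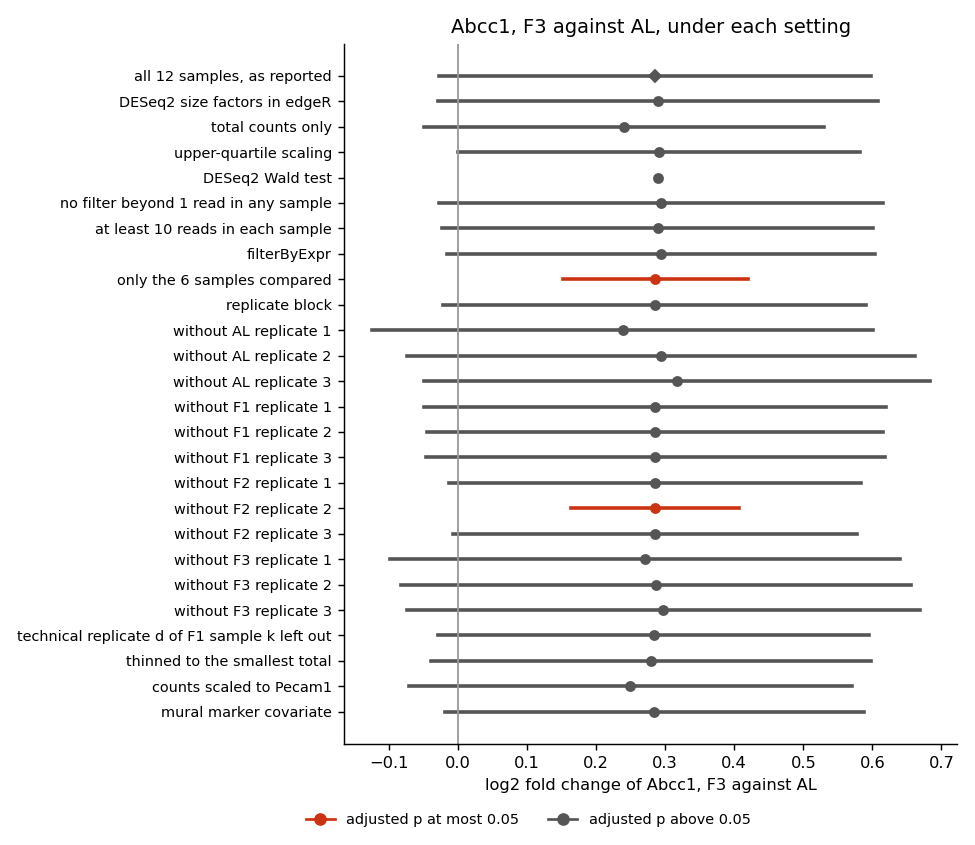
LFC of Abcc1 in F3 against AL (log2 scale) with its 95% interval, in the reported fit and in 25 other settings, where replicates 1, 2 and 3 are samples i, j and k and the DESeq2 fit has no interval drawn. The LFC stays between 0.24 and 0.32, and the 2 red intervals are the settings with an adjusted p of at most 0.05.

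Abcc3, the gene of MRP3, had the fewest reads and the widest bounds of the 6 pumps. Its normalized counts were 87.4, 53.2 and 36.7 in AL, 69.1, 36.8 and 42.6 in F1, 53.1, 41.6 and 46.1 in F2 and 47.3, 42.8 and 52.6 in F3 samples. The AL samples i and k held the highest and the lowest of the 12 values, and all groups overlapped. The LFC was -0.27 at day 1, -0.34 at day 2 and -0.32 at day 3, with a standard error of 0.30 each. The intervals, -46.9% to 30.4%, -49.8% to 23.7% and -49.0% to 25.2%, allow a loss as well as a gain. With this error a change would have been called at an LFC of at least 1.07, 1.39 or 0.98 on the 3 days.

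**Figure D4:**
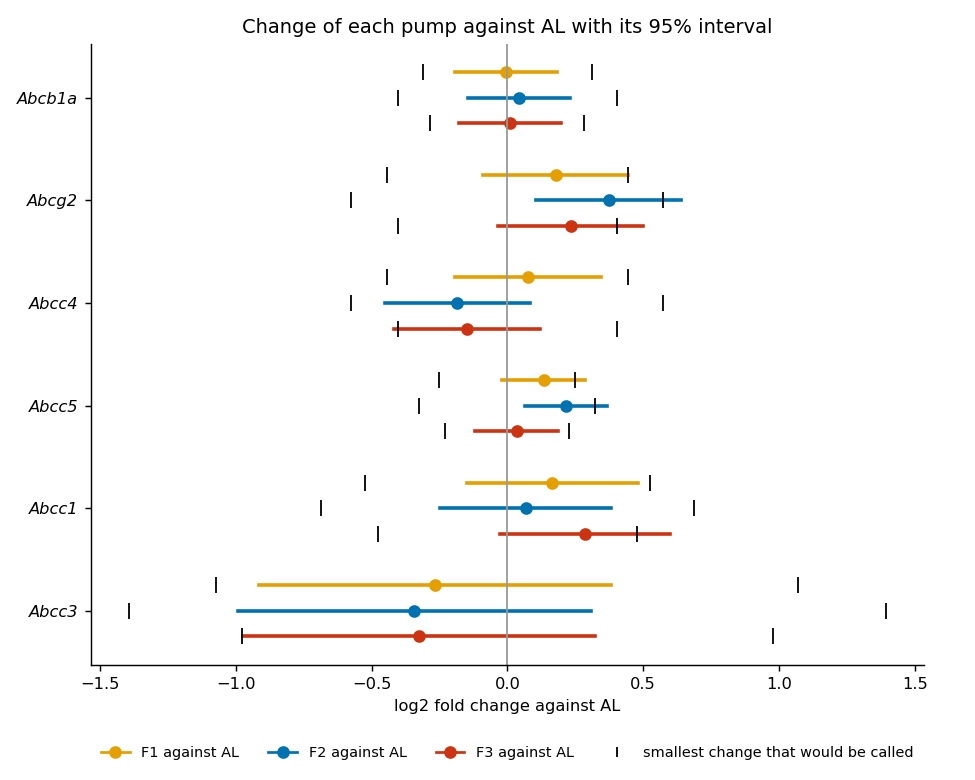
LFC of each pump against AL (log2 scale) with its 95% interval, by day of fasting, from the model over all 12 samples. Black ticks mark the smallest change that would have been called at an adjusted p of at most 0.05, and all 18 points lie between their ticks, while the intervals of Abcg2 and Abcc5 at day 2 lie wholly above 0.

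Across the 18 changes against AL, the width of the bounds followed the number of reads only in part. Abcc3, with the fewest reads, had the largest standard error (0.30), but Abcc5 and not Abcb1a had the smallest (0.070). For the pump with the most reads, Abcb1a, the 3 intervals together spanned -12.5% to 17.4%. For Abcc5 they spanned -7.84% to 29.0%, although it had fewer reads than Abcg2 and Abcc4. The span was -6.06% to 55.9% for Abcg2, -26.9% to 26.9% for Abcc4, -15.7% to 51.4% for Abcc1 and -49.8% to 30.4% for Abcc3. These spans are of the fit of all 12 samples, and other settings gave wider bounds, listed at the end. Each interval has a level of 95% on its own, so that of 18 such intervals some may miss the true change. As the labels do not say which rats went into which sample, these intervals measure the spread between samples as deposited.

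Between days of fasting, no pump was called either by edgeR or by DESeq2. The edgeR test called 1.43% of all genes from F1 to F2 and 5.94% from F2 to F3, and DESeq2 called 4.72% and 9.52%. From F2 to F3, 1 of the 6 had an unadjusted p under 0.05, beside 22.0% of all genes, and 0 of the 6 from F1 to F2 or from F1 to F3, beside 17.3% and 4.44%. For F3 against F1 the edgeR test called 0 of 13050 genes (0%), with 579 at an unadjusted p under 0.05, and DESeq2 called 24. Abcc5 had the largest contrast between days for its error, with an LFC of -0.18 for F3 against F2 (standard error 0.070, interval -20.6% to -2.13%, adjusted p = 0.145). Its F3 samples were all below its F2 samples, as for 12.1% of the genes. For F3 against F1, 3 of the 6 pumps did not overlap (Abcc1 higher, Abcc4 and Abcc5 lower), beside 1695 of 13050 genes in either direction. For F2 against F1 it was 1 of the 6 (Abcc5, higher), beside 2844 genes. Abcc4 had an LFC of -0.26 for F2 against F1 (interval -30.6% to 0.521%, adjusted p = 0.304) and of -0.23 for F3 against F1 (-29.0% to 2.97%). Abcb1a had LFCs of 0.049 from F1 to F2, -0.035 from F2 to F3 and 0.014 from F1 to F3, with intervals that together spanned -14.3% to 17.8%. In the joint test of any difference among the 4 groups, which called 10.1% of all genes, the adjusted p was 0.158 for Abcc5, 0.235 for Abcg2 and between 0.394 and 0.965 for the other 4 pumps. Without F2 sample j, the joint test called Abcc1 (adjusted p = 0.0131), as it did 1782 of the 13090 genes in that fit.

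The pumps were also set against Pecam1, the gene of the marker CD31 that the cells were sorted on. Abcb1a stood at 226% ± 13.2 of the reads of Pecam1 in AL, 201% ± 11.6 in F1, 239% ± 27.4 in F2 and 221% ± 12.8 in F3 samples (SD, n = 3 each). Abcc5 stood at 14.7% ± 0.313, 14.4% ± 0.609, 17.6% ± 1.05 and 14.7% ± 0.897 of Pecam1 in AL, F1, F2 and F3 samples (SD, n = 3 each), with the F2 samples above all others. In a fit scaled in this way, a choice made after seeing the data, Abcc5 was called for F2 against F1 (LFC 0.29, adjusted p = 0.0304) and in the joint test (adjusted p = 0.0450). That fit called 1898 of 13050 genes for F2 against F1, where the TMM-scaled fit called 186. In the joint test it called 1992, against 1321. The median LFC over all genes was 0.20 for F2 against F1. Relative to that shift, the LFC of Abcc5 was close to the 0.083 of the TMM-scaled fit.

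Over the 12 samples, the pumps showed no common course. Of their 15 pairwise correlations of log2 levels, given as a description of samples that share groups and sorting, the highest was between Abcb1a and Abcc1 (Pearson r = 0.729, Spearman rho = 0.713, n = 12). Abcb1a with Abcc4 gave r = 0.561 but rho = 0.0769, and Abcc1 with Abcc4 gave r = 0.574 but rho = -0.280, and in both pairs F2 sample j was the lowest for both genes. Abcg2 and Abcc4 had r = -0.319. The 2 genes with the pattern most like that of Abcb1a, among 1259 with a symbol and at least 100 normalized counts on average, were Akap13 (r = 0.884) and Akap2 (r = 0.878). Those most like Abcg2 were Acta2 (r = 0.832) and Aars2 (r = 0.755), and those most like Abcc4 were Ap3m2 (r = 0.961) and the clone-named AABR07006458.1 (r = 0.925), each over 12 samples. Of the 1259 genes searched, 836 have a symbol that begins with A, because the list of symbols used was cut short, so these are the most alike of that list and not of all genes.

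Among the other efflux relatives, 7 of 11 listed genes had an identifier (Abcc2, Abcc6, Abcc10, Abcg1, Abcg4, Abcg3l1 and Abcg3l3), and edgeR called none of them against AL on any day, with 2, 1 and 2 at an unadjusted p under 0.05 on days 1, 2 and 3. Their median LFC was -0.32 at day 1, -0.062 at day 2 and -0.28 at day 3. Abcc10 (MRP7), with 377 ± 70.2 normalized counts (SD, n = 12), fell from F2 to F3 (LFC -0.49, standard error 0.14, adjusted p = 0.0496) and kept that call in 10 of 25 other settings. Of all genes, 5.94% were called in that comparison. In the joint test of the 4 groups, which called 10.1% of all genes, Abcc10 was also called (adjusted p = 0.0488). Abcc2 (MRP2), known from the bile-facing membrane of liver cells, had 29.3 ± 8.50 normalized counts and Abcg4 had 7.88 ± 3.92 (SD, n = 12). Of the 32 other ABC genes as a whole, 1 was called higher at day 1, 0 at day 2, and 2 higher and 2 lower at day 3, with median LFCs of -0.10, 0.0076 and -0.084. On days 1, 2 and 3, 7, 4 and 10 of those 32 had an unadjusted p under 0.05, beside 20.6%, 12.8% and 26.0% of all genes. Of 18 listed regulators of pump transcription only Ahr and its partner Arnt had an identifier, at 172 ± 57.3 and 2113 ± 202 normalized counts (SD, n = 12), and neither was called in any comparison or had an unadjusted p under 0.05.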

How the data were processed

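CECs were isolated by magnetic sorting and their polyA+ RNA was sequenced from stranded libraries (TruSeq Stranded mRNA). The authors trimmed and filtered reads in the Eoulsan pipeline, aligned them with STAR to the Ensembl rat genome (Rnor_6.0), left out reads with more than 1 match and summed exon reads per gene with HTSeq (version 0.5.3 per the submitters' processing notes, which also name bcl2fastq 2.18.0.12). The strand setting of the counting was not given in the sources used here. The deposited files hold these raw counts, 1 file for each of 4 sequencing runs of 12 samples (48 files), of which no row lacked a gene.

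Counts were summed over the runs of each sample, as the study did. One run of F1 sample k (run d) is labelled F1 in its title and as a 2-day fast elsewhere. It was kept in F1 by its title, it departed from the sample's other runs by no more than sampling noise (chi-square per degree of freedom 1.00, p = 0.427 over 11158 genes), and leaving it out was an alternative. Genes with at least 1 read in each sample were scaled by TMM and fitted in edgeR 4.0.16 (R 4.3.3) with 4 group means and robust quasi-likelihood dispersions, with Benjamini-Hochberg adjustment over all genes and a threshold of 0.05. The 95% intervals came from the same model, and the code was tested on simulated data. Normalized counts are TMM-scaled to the mean effective library size. DESeq2 1.42.0 was an alternative. Gene symbols came from the study's gene tables, of which only names and identifiers were used and 1 was shortened, so that list members without an identifier were not analysed here. The planned order per kilobase could not be run without transcript lengths of this build, so the order is by reads. Planned and added alternatives varied scaling, filter, test, samples and covariates. The genes named were the 6 pumps, the listed relatives and regulators that had an identifier, and the 2 genes most correlated with each of Abcb1a, Abcg2 and Abcc4. The members and lists were chosen with earlier results of these data known.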

Additional observations from a re-analysis of the deposited data

How the results depend on the processing

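The order of the 6 pumps by reads held in each of 12 samples, so neither a scaling, which acts on all genes of a sample alike, nor the omission of a sample could change it. Of the 25 other settings, 3 changed a count of calls from 0. Abcc1 was called for F3 against AL (1 of 6 pumps) in the fit of the 6 samples compared and without F2 sample j, and in the joint test (1 of 6) without F2 sample j. Those fits called 15.6% and 18.1% of all genes for F3 against AL, and that joint test called 1782 of 13090. With counts scaled to Pecam1, chosen after seeing the data, Abcc5 was called for F2 against F1 (1 of 6) and in the joint test (1 of 6), where the median over all genes moved by -0.17 for F1 against AL, 0.20 for F2 against F1 and 0.13 for F3 against F1. That scaling called 1898 of 13050 genes for F2 against F1 and 1992 in the joint test. Leaving out single samples left all counts between 0 and 1.

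LFCs near 0 changed sign in 17 instances outside the omission of samples. Under total counts these were Abcb1a (-0.036) and Abcc5 (-0.011) for F3 against AL. Without a filter it was Abcb1a for F1 against AL (0.00305), and after thinning to 20718644 reads Abcc3 for F3 against F1 (0.00958). With Pecam1 scaling they were Abcc4 (-0.091) and Abcc5 (-0.029) for F1 against AL, Abcb1a (-0.027) and Abcc5 (-0.0019) for F3 against AL, Abcc1 (0.11) and Abcc3 (0.12) for F2 against F1, Abcc3 (-0.060) and Abcc4 (-0.044) for F3 against F2, and Abcc3 (0.062) and Abcc5 (0.027) for F3 against F1. With the mural covariate, also chosen after seeing the data, they were Abcb1a for F1 against AL (0.013), Abcc1 for F2 against AL (-0.00407) and Abcb1a for F3 against F1 (-0.00350). None of these was called in either fit, and the cause was not tested.

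Leaving out single samples turned the sign in 27 instances. Abcb1a then ranged from -0.026 to 0.0087 for F1 against AL, -0.012 to 0.13 for F2 against AL, -0.0075 to 0.039 for F3 against AL, -0.00656 to 0.14 for F2 against F1, -0.12 to 0.021 for F3 against F2 and -0.0028 to 0.048 for F3 against F1. Abcc3 ranged from -0.58 to 0.14, -0.59 to 0.061 and -0.57 to 0.078 against AL on days 1, 2 and 3, from -0.25 to 0.24 for F2 against F1, -0.061 to 0.12 for F3 against F2 and -0.23 to 0.26 for F3 against F1. Abcc1 ranged from -0.049 to 0.27 for F2 against AL and -0.21 to 0.11 for F2 against F1, Abcc4 from -0.13 to 0.13 for F3 against F2 and Abcg2 from -0.016 to 0.16 for F3 against F1.

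The sample letters were also tried as a replicate block, under which 0 of 6 pumps were called in each comparison and the joint test, and the LFC of Abcg2 at day 2 was 0.37 (adjusted p = 0.202). The paper describes 3 independent experiments as its biological replicates, but the labels do not say whether a letter marks an experiment. The correlations of same-letter deviations ran from -0.0172 to 0.139, with 3 of 18 over 0.1. Of the 12 samples, 9 correlated best with their own letter among the 3 letters. Pairing by letter was not tested beyond this block. Over all settings with an interval, the bounds of Abcb1a against AL reached -23.1% (Pecam1 scaling, day 1) and 22.7%. Those of Abcg2 reached -19.2% and 68.1%, those of Abcc4 -32.5% and 35.2% and those of Abcc5 -12.7% and 34.3%. For Abcc1 they reached -23.0% and 60.5%, and for Abcc3 -58.7% and 69.4%. For Abcc10, the LFC for F3 against F2 stayed between -0.61 and -0.37, with an adjusted p of 0.0167 to 0.201. Abcc3 had 33 to 95 reads per sample, with a counting error of 10.3% to 17.4% beside a coefficient of variation within groups of 31.5%. The planned order per kilobase was not run.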
